A study of Mus musculus with 60 samples.

Results

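The 6 cortex-like libraries with the lowest Htt were compared with the other 24 cortex-like libraries, out of 60 RNA-Seq libraries in the series. A library was taken as cortex-like when its deposited FPKM (fragments per kilobase of transcript, scaled to the library's mapped fragments) of Slc17a7, the vesicular glutamate transporter of cortical excitatory neurons, exceeded 100, which held for 30 libraries. The FPKM of each library were then divided by a size factor, the median over genes above 0 in all 30 libraries of the library's value relative to the geometric mean (rescaled FPKM), and the 6 lowest values of Htt were taken. The members were thus chosen by measured Slc17a7 and Htt and not by a label, so these 2 genes are described without a test, and the 6 libraries are not replicates of a condition.

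The series holds cortex and striatum of c57BL-6N mice labelled as 3 months old, from a HTT Δ12 line (+/+, Δ12/+ and Δ12/Δ12) and an HTT KO line (+/+ and KO/+). The Δ12 allele is a constitutive knock-in made by genome editing in embryonic stem cells, and it removes part of exon 12 of Htt; the KO allele was studied in heterozygotes. All 30 cortex-like libraries carried labels of the Δ12 line, 12 as +/+, 12 as Δ12/+ and 6 as Δ12/Δ12, and none carried a label of the KO line. Of the 30, 15 were labelled cortex and 15 striatum.

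Huntingtin, the product of Htt, is a large scaffold protein that links vesicles to motor proteins on microtubules and is cleaved by caspases. An expanded glutamine repeat in it causes Huntington's disease, in which striatal and cortical neurons degenerate. Mice that lack huntingtin altogether die as embryos, whereas heterozygotes live.

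The reference sequence of the end of exon 12 is given because the Δ12 labels of 5 of the 6 libraries refer to a deletion in this exon. The exact bases deleted in the mouse allele were not taken from any file, so the stretch marked is not given as the boundaries of that allele. In GENCODE release M21 (GRCm38), Htt lies on the plus strand of chromosome 5, and exon 12, of the 67 exons of its coding transcript, spans chr5:34812852-34813192. The last 195 bases of that exon, chr5:34812998-34813192, read as follows, with the final 135 bases (45 codons), the stretch that the naturally occurring human splice form leaves out, in capitals.
Htt exon 12, 3′ end: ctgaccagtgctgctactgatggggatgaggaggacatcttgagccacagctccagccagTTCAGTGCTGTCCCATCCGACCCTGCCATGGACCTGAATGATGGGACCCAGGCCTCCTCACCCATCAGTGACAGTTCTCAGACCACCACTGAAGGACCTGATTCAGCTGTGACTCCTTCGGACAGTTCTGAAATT
The capitals make up 1.02% of the 13215-base transcript. The deposited tables give 1 value per gene, so they do not show whether a library contains transcripts with or without these bases.

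The Htt values showed no gap between the 6 lowest libraries and the rest. Rescaled Htt was 5.66 FPKM in cortex Δ12 line +/+ female 1, 7.54 in striatum Δ12 line Δ12/+ female 2, 7.97 in cortex Δ12 line Δ12/+ female 2, 8.64 in cortex Δ12 line Δ12/+ female 1, 8.68 in striatum Δ12 line Δ12/Δ12 male 1 and 8.85 in striatum Δ12 line Δ12/Δ12 male 3. The seventh library, cortex Δ12 line Δ12/Δ12 male 2, stood at 8.92 FPKM, and the 24 others reached 12.9, with a median of 10.8. The sixth and seventh values thus differed by 0.077 FPKM, which was smaller than the median distance between neighbours in the order (0.107 FPKM) and ranked 19th from the largest among the 29 distances.

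The intervals that the tables give for Htt were far wider than that distance. Their width to either side was 6.18% to 16.6% of the value, and the interval of the sixth library (7.88 to 9.81 FPKM) overlapped those of 12 of the 24 others. The largest distance in the order lay inside the 6, between the lowest library and the second lowest, at 1.88 FPKM, against 0.671 for the next largest. The interval of the lowest library (5.17 to 6.14 FPKM) overlapped none of the intervals of the 24 others. The same 6 libraries were lowest when the deposited FPKM were used without rescaling, at 6.39 to 8.78 FPKM against 8.90 to 13.8.

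**Figure D1:**
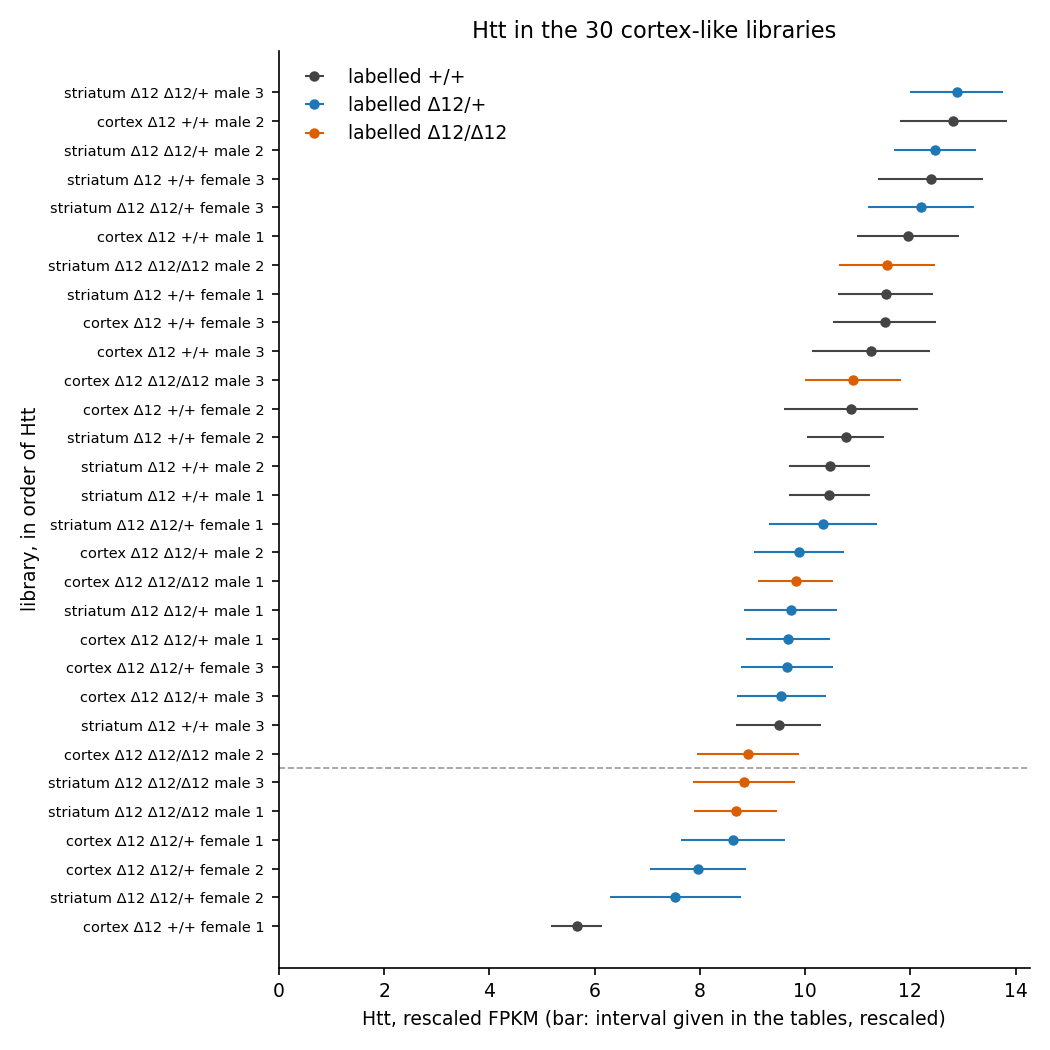
Rescaled FPKM of Htt (horizontal axis) in each of the 30 cortex-like libraries (vertical axis, in order of Htt), with points coloured by labelled genotype and bars for the intervals given in the tables. The dashed line lies between the sixth and seventh library, at 8.85 and 8.92 FPKM, where no gap is seen, and the lowest library stands apart at 5.66 FPKM.

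The genotype labels of the 6 were mixed. Of the 6, 1 was labelled +/+ (of 12 such cortex-like libraries), 3 were labelled Δ12/+ (of 12) and 2 were labelled Δ12/Δ12 (of 6). The label cortex was on 3 of them and the label striatum on 3. The lowest library of all was a labelled wild type.

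Across the 30 libraries the Htt ranges of the labelled genotypes overlapped. Htt was 5.66 to 12.8 FPKM (median 11.1) in the 12 libraries labelled +/+, 7.54 to 12.9 (median 9.70) in the 12 labelled Δ12/+, and 8.68 to 11.6 (median 9.37) in the 6 labelled Δ12/Δ12. These ranges are a description, since Htt chose the 6. The tissue labels gave medians of 9.82 FPKM for cortex and 10.5 for striatum.

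The labelled sex of the 6 libraries went against their sex-linked transcripts in every case. Xist, the RNA that silences an X chromosome in female cells, was 23.8 and 24.8 FPKM in the libraries labelled male and at most 0.068 in the 4 labelled female. Ddx3y, a Y-linked helicase gene, was 22.2 to 34.0 FPKM in the 4 labelled female and 0 in the 2 labelled male. Among the 24 others, 13 had the transcript of their labelled sex as the higher of the pair. The genotype labels above are therefore given as labels, and which genotype each library holds cannot be told from them.

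The 6 libraries held the markers of cortical tissue that the rule had asked for. Their deposited Slc17a7 was 155 to 227 FPKM, within the range of the 24 others (121 to 234), whereas the 30 remaining libraries of the series reached 64.8 at most. Ppp1r1b, which encodes the striatal signalling protein DARPP-32, was 45.6 to 76.5 rescaled FPKM in the 6 and 42.3 to 240.0 (median 72.5) in the 24. Deposited Slc17a7 was 155, 176 and 181 FPKM in the 3 libraries labelled striatum and 186, 191 and 227 in the 3 labelled cortex. These do not overlap, whereas the rescaled values of Slc17a7 and of Ppp1r1b overlapped between these labels. In the 24 others deposited Slc17a7 also overlapped, at 121 to 234 FPKM under the label striatum and 156 to 220 under the label cortex. No pair of the 60 libraries held identical values.

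Cortex Δ12 line +/+ female 1 stood apart from the other libraries. Of the 15586 genes tested, 1926 were listed at 0 in it, against 472 to 602 in the other 5 low-Htt libraries. In the 24 others the number was 305 to 547, apart from cortex Δ12 line +/+ male 1 with 1269, whose Htt was 12.0 FPKM. There were 867 genes at 0 in cortex Δ12 line +/+ female 1 alone. Depth, estimated from the widths of the tables' intervals, was 13.2 to 15.9 (in 1e6 fragments) in the 6 and 12.7 to 19.4 in the 24, so the estimate did not set the 6 apart. In the following, differences and medians that this library moved by more than 1.5 times are also given without it.

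**Figure D2:**
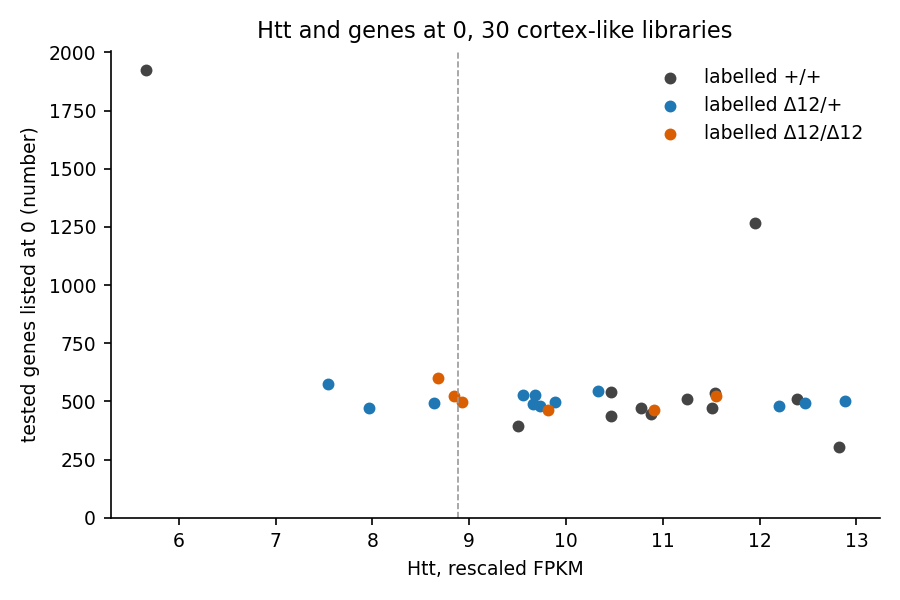
Number of tested genes listed at 0 (vertical axis) against rescaled FPKM of Htt (horizontal axis) in the 30 cortex-like libraries, coloured by labelled genotype; the dashed line separates the 6 lowest in Htt. The library with 5.66 FPKM of Htt has 1926 genes at 0, and one library with 12.0 FPKM has 1269.

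No gene other than Htt passed the test between the 6 low-Htt libraries and the 24 others. In limma on log2(rescaled FPKM + 0.5), 0 of 15586 genes (0%) passed a Benjamini-Hochberg-adjusted p of 0.05, and the smallest adjusted p was 0.071. An unadjusted p under 0.05 was reached by 1559 genes (10.0%), of which 630 were higher in the 6 (4.04% of all) and 929 were lower (5.96%). In no gene did the values of the 6 libraries lie wholly above or below those of the 24 (0%). The median log2 difference over all genes was −0.022, and −0.0071 without cortex Δ12 line +/+ female 1.

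The precision of the comparison was moderate. The median standard error of a log2 difference was 0.14, and the 95% interval reached a median of 0.28 to either side. For 11172 genes (71.7%) the interval lay within a 1.5-fold change in either direction, and for 14125 (90.6%) within a 2-fold change. For the remaining genes the interval reached beyond a 2-fold change. Because the tissue is a mixture of cells, fewer cells of a type and less RNA per cell cannot be told apart in any of these values.

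**Figure D3:**
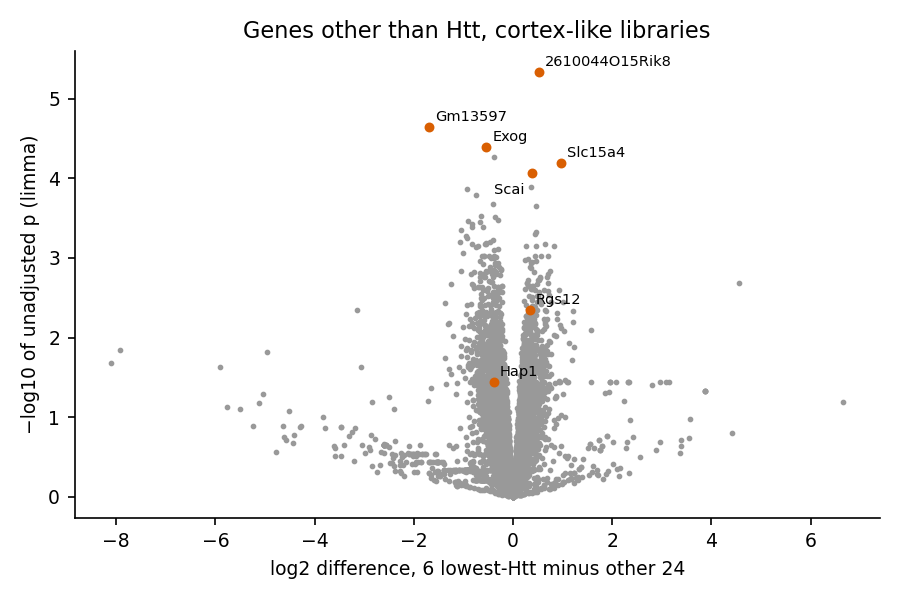
Log2 difference between the 6 lowest-Htt and the other 24 cortex-like libraries (horizontal axis) against −log10 of the unadjusted p from limma (vertical axis) for 15586 genes other than Htt, with 7 genes named. None of the points passes an adjusted p of 0.05, and the smallest adjusted p, of 2610044O15Rik8, is 0.071.

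Among the genes nearest to the threshold, not all of which are named, were 2610044O15Rik8, Gm13597, Exog, Slc15a4 and Scai, chosen after their values were seen. 2610044O15Rik8 (ENSMUSG00000071302, on chromosome 8) was 23.3, 18.2, 15.4, 18.4, 17.3 and 15.2 rescaled FPKM in the 6 libraries, in the order of Htt given above, and 9.49 to 16.2 (median 12.1) in the 24. All 6 values were above the median of the 24, and 2 of them lay within its range. Its log2 difference was 0.52 ± 0.09 (SE), with a limma adjusted p of 0.071.

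Slc15a4, a lysosomal transporter of peptides and histidine, was 37.9, 24.1, 11.6, 7.85, 8.79 and 17.6 FPKM in the 6 and 5.55 to 13.6 (median 7.18) in the 24. Its spread among the 6 was larger than among the 24, and the lowest-Htt library was the highest. The log2 difference was 0.96 ± 0.21 (SE; limma adjusted p 0.20) and 0.70 without that library. Scai, an inhibitor of a transcriptional coactivator that responds to actin, differed by 0.39 ± 0.09 (adjusted p 0.22).

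Exog, a mitochondrial nuclease, was 1.90, 3.78, 5.53, 5.43, 4.72 and 4.81 FPKM in the 6 and 5.19 to 7.61 (median 6.10) in the 24. All 6 were below the median of the 24, at a log2 difference of −0.54 ± 0.11 (limma adjusted p 0.20) that came to −0.35 without cortex Δ12 line +/+ female 1. Gm13597 is a processed pseudogene, whose reads can be shared with near-identical copies, so its values are uncertain. It was listed at 0 in 2 of the 6 and at 1.19 to 5.05 FPKM in the others, against 1.32 to 10.8 in the 24, with a log2 difference of −1.69 ± 0.34 (adjusted p 0.18).

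Genes were grouped by function into 26 lists, described by counts and medians beside those of all genes. None of the 26 lists held a gene that passed the adjusted threshold (0% of all genes). Members are therefore given with their values and not as changes.

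Huntingtin's partners and the transport genes around it did not pass the test. All 22 listed genes were tested, with a median log2 difference of −0.05 (0.00 without cortex Δ12 line +/+ female 1), and 2 of the 22 were lower at an unadjusted p under 0.05, against 5.96% of all genes. Hap1, which couples huntingtin to the dynactin motor complex, was 3.17, 9.84, 10.7, 13.6, 9.58 and 11.3 FPKM in the 6 and 8.07 to 21.7 (median 12.3) in the 24. Only the lowest-Htt library lay below the range of the 24. The log2 difference of Hap1 was −0.39 ± 0.18 (limma adjusted p 0.48) and −0.12 without that library.

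Sh3gl3, an endophilin of endocytic vesicles, was below the median of the 24 in all 6 libraries (9.16 to 14.3 FPKM against a median of 15.3), with a log2 difference of −0.27 ± 0.13 (limma adjusted p 0.49). F8a, which encodes the huntingtin-associated protein HAP40, was 1.46 to 4.27 FPKM in the 6 and 2.84 to 5.20 in the 24. Its 2 lowest values belonged to the 2 libraries lowest in Htt, and 3 of the 6 were above the median of the 24 (3.61). The log2 difference of F8a was −0.22 ± 0.12 (SE; limma adjusted p 0.56), and −0.05 without cortex Δ12 line +/+ female 1. Bdnf, the neurotrophin whose transport in axons depends on huntingtin, was 2.36, 4.56, 5.84, 5.52, 3.96 and 5.20 FPKM in the 6 and 3.21 to 7.92 (median 4.97) in the 24. Bdnf was thus on both sides of that median, and its log2 difference of −0.16 had a 95% interval from −0.46 to 0.14. Without cortex Δ12 line +/+ female 1 the difference of Bdnf was −0.0018. The motor genes Kif5a, Kif5b and Kif5c differed by −0.04, 0.08 and −0.07, each with an adjusted p above 0.8, and by −0.02, 0.16 and −0.04 without that library.

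The caspases, proteases that cut huntingtin among many substrates, gave no called gene among 6 tested of 7 listed, with a median of −0.11, which was −0.05 without cortex Δ12 line +/+ female 1. Casp6, which cleaves huntingtin next to the exon 12 segment shown above, was 5.02, 0.29, 1.65, 1.38, 0.149 and 3.48 FPKM in the 6 and 0.655 to 3.66 (median 1.97) in the 24. The 6 libraries thus held both the highest and the lowest Casp6 values of all 30. Its log2 difference was −0.27, with a 95% interval from −0.90 to 0.37, and −0.57 without cortex Δ12 line +/+ female 1. Casp8, an initiator of cell death, was listed at 0 in cortex Δ12 line +/+ female 1 and at 0.273 to 0.836 FPKM in the other 5, and Casp9, another initiator, differed by 0.05 ± 0.11 (SE).

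**Figure D4:**
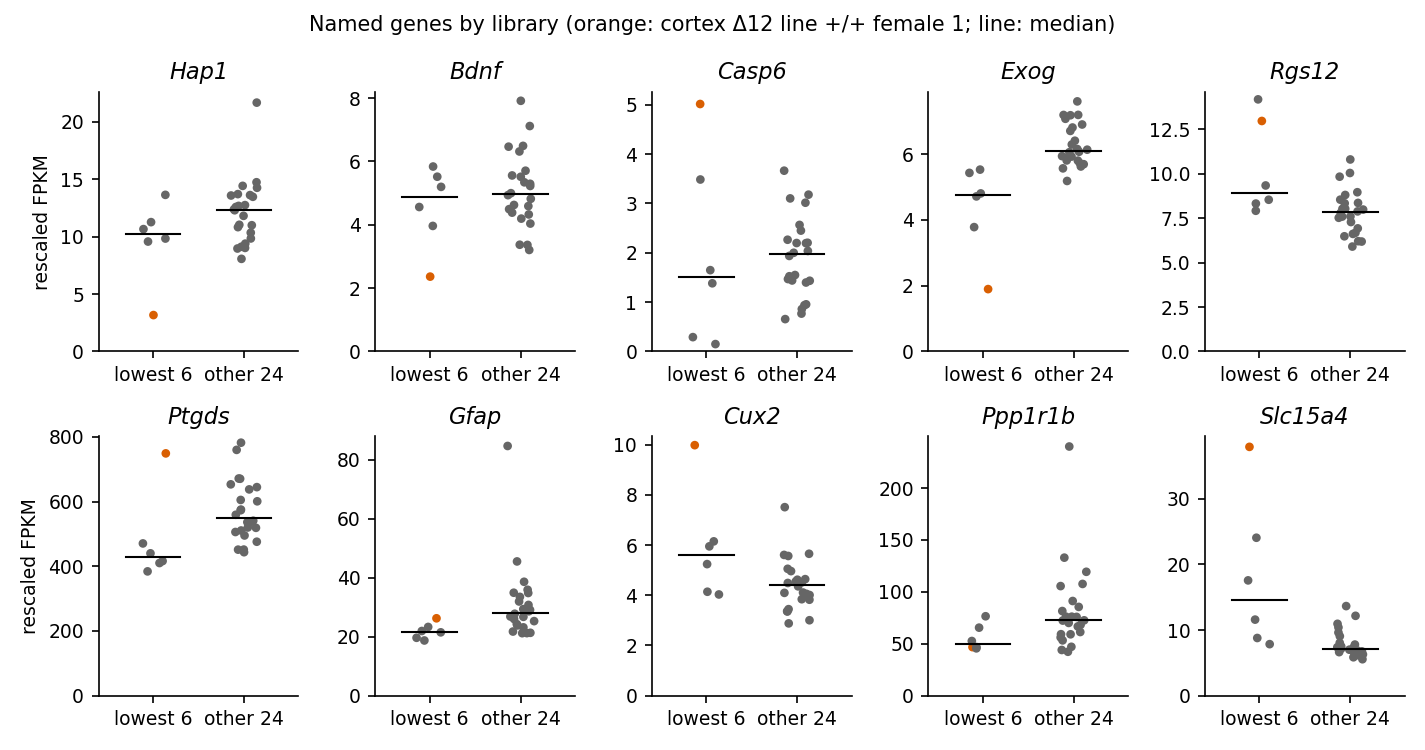
Rescaled FPKM of 10 named genes (vertical axes, each from 0) in the 6 lowest-Htt and the other 24 cortex-like libraries, 1 point per library, with the median as a line and cortex Δ12 line +/+ female 1 in orange. The groups overlap in every gene shown, and the orange library lies at the edge of the 6 in Hap1, Bdnf, Casp6, Exog, Ptgds, Gfap, Cux2 and Slc15a4.

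The neighbours of Htt on chromosome 5 gave no called gene either. Within 1 Mb of Htt the tables list 65 entries, of which 31 were tested, with a median of −0.03 (0.02 without cortex Δ12 line +/+ female 1). The gene with the smallest adjusted p was Rgs12, a regulator of G protein signalling, at 13.0, 8.54, 9.35, 7.92, 14.2 and 8.33 FPKM in the 6 and 5.91 to 10.8 (median 7.85) in the 24. All 6 were above that median, and the log2 difference was 0.34 ± 0.11 (limma adjusted p 0.36). Lrpap1, a chaperone of lipoprotein receptors, differed by −0.16 ± 0.07 (adjusted p 0.48). Letm1, Whsc1 and Add1 differed by −0.14, 0.10 and 0.04, with 95% intervals that included 0; without that library Letm1 differed by −0.01 and Add1 by −0.07.

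The genes that mark substrains of C57BL/6 mice were considered because the labels name c57BL-6N. Of 7 listed, 5 were tested. Nnt, a mitochondrial transhydrogenase that is partly deleted in the J substrain, was 6.13 to 9.83 FPKM in the 6 and 7.06 to 12.4 in the 24, so it was expressed in all 30. Its log2 difference was −0.25 ± 0.10 (limma adjusted p 0.44). Entpd4, a nucleotidase of intracellular membranes, differed by 0.17 ± 0.07 (adjusted p 0.46), and by 0.11 without cortex Δ12 line +/+ female 1. Crb1 and Nlrp12 were too low to test.

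Cholesterol synthesis, which is altered in models of Huntington's disease, was described by 15 listed genes, 14 of them tested. Of these 14 differences 11 were negative, and the median was −0.06 (−0.12 without cortex Δ12 line +/+ female 1). Sc5d, a late enzyme of the pathway, was 11.4 to 13.1 FPKM in the 6 and 9.43 to 18.3 (median 13.9) in the 24. It was below that median in all 6 libraries, with a log2 difference of −0.18 ± 0.09 (limma adjusted p 0.50). Hmgcs1, an early enzyme, differed by −0.13 (95% interval −0.32 to 0.07), and by −0.21 without that library.

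Immediate early genes, which follow neuronal activity, had a median of −0.11 over 12 tested genes, of which 10 were negative, and of −0.07 without cortex Δ12 line +/+ female 1. Nr4a1 was the lowest at −0.30 (95% interval −0.70 to 0.10), and Fos was −0.07 (−0.50 to 0.35), or −0.19 without that library. The other polyglutamine disease genes had a median of −0.01 over 8 tested genes (0.07 without it). Atn1 was listed at 0 in cortex Δ12 line +/+ female 1 and at 3.77 to 6.16 FPKM in the other 5, so that its log2 difference was −0.53 with that library and 0.04 without it.

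Markers of cell types gave the makeup of the dissected tissue. Of 9 genes of cortical excitatory neurons, 1 had an unadjusted p under 0.05, against 10.0% of all genes. This was Cux2, a transcription factor of upper cortical layers, at 9.98, 4.03, 4.14, 6.15, 5.24 and 5.95 FPKM in the 6 and 2.88 to 7.51 (median 4.43) in the 24. Its log2 difference was 0.35 ± 0.14 (limma adjusted p 0.45) and 0.20 without the lowest-Htt library.

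All 8 genes of striatal projection neurons had a negative difference, with a median of −0.21, and none passed the test. Ppp1r1b differed by −0.46 ± 0.23 (limma adjusted p 0.50), Penk by −0.30 and Drd1 by −0.22. The summed level of the 8 genes was 148 to 181 FPKM in the 6 and 118 to 656 in the 24, so the 6 lay inside the range of the 24 and lacked its upper part. In Ppp1r1b the highest of the 24 was 1 library, striatum Δ12 line Δ12/+ male 3, at 240.0 FPKM, and the next was 133. That library was also the highest in Htt, at 12.9 FPKM. With each library left out in turn, Ppp1r1b differed by −0.56 to −0.39. A fit with the list of 8 genes as a covariate also called 0 genes.

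Of 6 astrocyte genes, Gfap and Aldoc were lower at an unadjusted p under 0.05, against 5.96% of all genes. The median of the 6 was 0.0033, and 0.03 without cortex Δ12 line +/+ female 1. Gfap, an intermediate filament, was 26.3, 23.3, 21.9, 21.5, 19.6 and 18.7 FPKM in the 6 and 21.2 to 84.7 (median 28.2) in the 24. All 6 were below that median, and the log2 difference was −0.43 ± 0.18 (limma adjusted p 0.46). Aldoc, a glycolytic enzyme, differed by −0.26 ± 0.12, whereas Aqp4, Gja1 and Aldh1l1 differed by 0.09, 0.05 and 0.28 (Gja1 by 0.12 and Aldh1l1 by 0.15 without that library). The summed level of the 6 genes was 332 to 410 FPKM in the 6 libraries and 303 to 532 in the 24.

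Ptgds, which encodes a prostaglandin D synthase abundant in the meninges, was 749, 440, 384, 416, 471 and 410 FPKM in the 6 and 443 to 782 (median 550) in the 24. The lowest-Htt library was among the highest of all 30, and 4 of the other 5 were below the lowest of the 24. The log2 difference was −0.28 ± 0.12 (limma adjusted p 0.46) and −0.42 without that library. Dcn, Col1a1 and Col1a2, which mark the same membranes, differed by −0.36, −0.44 and −0.23, and the 6 leptomeningeal genes had a median of −0.27. Without cortex Δ12 line +/+ female 1 this median was −0.15 and Dcn differed by −0.06. The summed level of this list was 411 to 789 FPKM in the 6 and 482 to 812 in the 24.

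Of the 4 endothelial genes, 1 was higher at an unadjusted p under 0.05, against 4.04% of all genes, and their median was 0.06 (−0.04 without cortex Δ12 line +/+ female 1). Slco1a4, a transporter of the blood-brain barrier, was 10.6 to 19.8 FPKM in the 6 and 6.16 to 15.9 in the 24, with a log2 difference of 0.38 ± 0.14 (limma adjusted p 0.43). Cldn5, of the same cells, differed by −0.28. The 6 microglial genes had a median of −0.09, the 6 interneuron genes of −0.03 and the 7 myelin genes tested of −0.02 (−0.0035 without that library). Pisd, an enzyme of phosphatidylethanolamine synthesis, differed by 0.07 (95% interval −0.11 to 0.26), and by 0.01 without it.

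Large housekeeping families are given with their counts beside those of all genes. Of 75 cytosolic ribosomal protein genes tested, 2 were higher and 5 lower at an unadjusted p under 0.05, against 4.04% and 5.96% of all genes, with a median of 0.02 (−0.03 without cortex Δ12 line +/+ female 1). Of 90 nuclear genes of oxidative phosphorylation, 1 was higher and 5 were lower, with a median of −0.03 (−0.06 without that library). None of the 22 tested genes of the mitochondrial genome reached an unadjusted p under 0.05.

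A fit on the level of Htt itself, in place of the 2 groups, gave a different count. When log2 expression was regressed on log2 rescaled Htt over the 30 libraries, 1430 of 15586 genes (9.17%) passed an adjusted p of 0.05 in limma. Of these, 497 (3.19% of all) were higher and 933 (5.99%) were lower where Htt was lower. Without cortex Δ12 line +/+ female 1, 0 genes passed (0%), 1823 had an unadjusted p under 0.05, and the smallest adjusted p was 0.086. Leaving out any other single library left 1160 or more genes.

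The slopes also became smaller without that library. The median size of the slope over the 1430 genes was 0.76 on the log2 scale per halving of Htt with all 30 libraries and 0.42 without it. The direction was kept in 1393 of the 1430, and in 591 the slope shrank to less than 0.5 of its value or turned. Of the 933 genes that were lower with lower Htt, 237 were listed at 0 in that library.

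**Figure D5:**
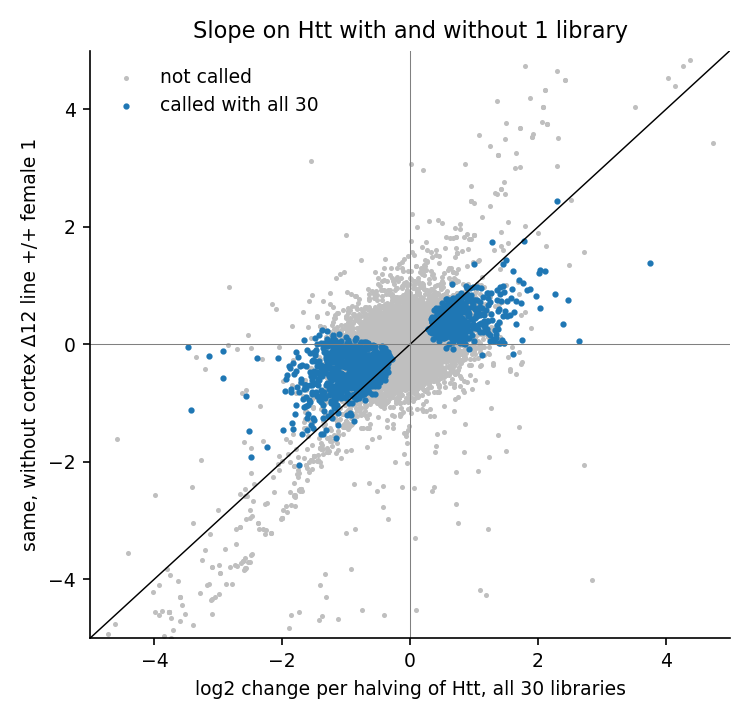
Log2 change of each gene per halving of Htt over all 30 cortex-like libraries (horizontal axis) and over 29 without cortex Δ12 line +/+ female 1 (vertical axis), with the 1430 genes called over all 30 in blue and equality as a line; 134 genes beyond 5 on either axis, 1 of them called, are not drawn. Most blue points lie nearer to 0 on the vertical than on the horizontal axis, with medians in size of 0.42 and 0.76.

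Single genes show this dependence. Hap1 had a slope of −1.07 (limma adjusted p 0.0079) with all 30 libraries and −0.50 without cortex Δ12 line +/+ female 1. Mbd1, a reader of methylated DNA chosen after its values were seen, was 1.33 FPKM in that library, 2.96 to 3.61 in the other 5 and 2.86 to 5.28 in the 24. Its slope was −0.98 with that library and −0.74 without it. Cacnb2, a subunit of voltage-gated calcium channels also chosen in that way, was 2.43 FPKM there and 6.19 or more in the 29 others, with slopes of −1.39 and −0.98.

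The same split was made in the 30 striatum-like libraries for comparison. There the 6 lowest Htt values were 11.2 to 14.0 FPKM and the 24 others 14.3 to 18.3. The sixth and seventh values differed by 0.344 FPKM, and by 1.69 in deposited FPKM, against 0.077 and 0.115 in the cortex-like libraries. All 6 of these lowest striatum-like libraries were labelled KO/+, which none of the cortex-like libraries was. The label cortex was on 3 of them and the label striatum on 3, so this class did not follow the tissue labels either. Of the 12 striatum-like libraries labelled KO/+, the other 6 were among the 24. Htt in these 12 ran from 11.2 to 17.5 FPKM, so the split did not separate the labelled genotypes. In limma, 0 of 15596 genes (0%) passed, 2665 had an unadjusted p under 0.05 and the smallest adjusted p was 0.055. A test of the difference between both contrasts over all 60 libraries called 4 of 16075 genes (0.0249%), 1 with a higher and 3 with a lower value in the cortex-like contrast.

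These 4 genes were Nup93, Gm13597, RP24-134N2.1 and B630019K06Rik. Nup93, a component of the nuclear pore, was 1.32 to 3.43 FPKM in the 6 low-Htt and 2.75 to 6.20 in the 24 other cortex-like libraries, and 11.2 to 14.2 against 8.40 to 12.5 in the striatum-like ones, all scaled together. The cortex-like contrast was thus lower than the striatum-like one by −0.72 ± 0.15 on the log2 scale (limma adjusted p 0.034). With the deposited FPKM, 0 genes passed this test and 1774 had an unadjusted p under 0.05.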

How the data were processed

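RNA was extracted with a column kit, depleted of ribosomal RNA and made into directional libraries. The authors deposited 1 gene-level table of FPKM per library, with interval bounds, 47597 entries each and GRCm38 coordinates. The submitters' processing notes name TopHat2 2.0.14 and HTSeq 0.6.1p1, among others; how the FPKM were computed is not given in the sources used here. FPKM are not counts, so limma 3.58.1 in R 4.3.3 was fitted on log2(rescaled FPKM + 0.5), where a fold change of a low gene is understated. Entries with a mean rescaled FPKM under 0.5, the 23 entries not marked OK in every library and Htt were left out. P-values were adjusted by Benjamini-Hochberg over all genes tested, and the script was tested on simulated data. No covariate was used, and depth was estimated from the interval widths of long genes with a single transcript. Nothing says whether libraries of a label come from separate extractions. Cortex and striatum libraries with the same labelled genotype, sex and number may come from the same mouse, yet each was fitted as independent. The p-values measure only the spread between libraries.

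The members and gene lists were chosen with earlier results of these data known, and 3 listed genes are not reported here and were left out of the lists. Named genes were Htt, Slc17a7, genes of the lists, genes within 1 Mb of Htt and up to 12 called genes in each direction that do not overlap between the groups; others are marked as chosen after their values were seen. Values were matched to GENCODE M21 for 47184 of the 47597 entries.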

Additional observations from a re-analysis of the deposited data

Results flagged for a closer look

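Within the 6 low-Htt libraries, Dixon's test at the 95% level was made on 29 sets of 6 values, of which it marks about 1 in 20 by chance, or 1.45 sets. It marked 4. Cortex Δ12 line +/+ female 1 had 1926 tested genes at 0, against 472 to 602 in the other 5. The same library was the highest in Ptgds, at 749 FPKM against 384 to 471, and in Cux2, at 9.98 against 4.03 to 6.15. Cortex Δ12 line Δ12/+ female 1 was the highest in Gm13597, at 5.05 FPKM against 0 to 1.39.

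In 4 genes the low-Htt difference of the cortex-like libraries was not that of the striatum-like libraries, by a test of the difference itself in limma over 60 libraries, each with an adjusted p of 0.034. The log2 difference of the contrasts was −0.72 in Nup93, −2.03 in Gm13597, −0.68 in RP24-134N2.1 and 0.60 in B630019K06Rik. With deposited FPKM the adjusted p of these 4 genes was 0.065 to 0.15.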

How the results depend on the processing

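The count of 0 genes in the comparison of the 6 with the 24 was also 0 under 16 of 20 alternatives (among them deposited FPKM, quantile normalization, other pseudocounts and filters, and covariates). The exceptions were 2 genes with the 7 lowest libraries, 1 with a replicate block, 1 at an adjusted p of 0.1, and 1430 for the slope on Htt. Of the 16, 1 could not differ, since the 6 lowest by deposited Htt are the same 6 libraries and the fit is the same. Leaving out each of the 30 libraries in turn gave 0 to 2 genes, with 1190 to 2068 at an unadjusted p under 0.05. The calls came from leaving out cortex Δ12 line +/+ male 3, cortex Δ12 line Δ12/+ male 1 and cortex Δ12 line Δ12/Δ12 male 2 (1 gene each, 2610044O15Rik8) and cortex Δ12 line Δ12/+ female 1 (2 genes, Slc15a4 and Gm13597). The slope on rescaled Htt called 888 genes when the other genes were taken as deposited FPKM, and no slope on deposited Htt was fitted. The slope called 421 with the number of entries above 0 as a covariate, 564 with a replicate block and 0 to 1872 with each library left out. All these alternatives were added after seeing the data. The striatum-like comparison called 2 genes with deposited FPKM, 1 with labelled sex as a covariate and 5 with a replicate block. The test between both contrasts called 0 with deposited FPKM. In the cortex-like libraries the distance between the sixth and seventh Htt value was 0.115 FPKM in deposited units.

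Of 1175 alternative values of 24 named genes, 1154 kept their direction and their side of the threshold, 15 passed it (the slope on Htt, the 7 lowest or a library left out) and 6 turned. With array weights F8a was 0.010 and Bdnf 0.037. With the slope on Htt Casp6 was 0.33 and Ptgds 0.052, and Ptgds was 0.073 after quantile normalization. With each library left out Casp6 ran from −0.57 to 0.043. Libraries with the same labelled sex and number were on average not more alike than others. Pairs of such libraries mix genotypes, and so different mice. They therefore cannot show whether the cortex and striatum libraries of a mouse are paired. The replicate block grouped libraries in the same way. Libraries with the same number had a mean residual correlation of −0.049, against −0.029 for other numbers, 7 of 63 pairs were over 0.1, and 5 of 30 libraries correlated best with their own number. The cause of these changes was not tested. For 90.6% of the genes the 95% interval of the 6 against the 24 lay within a 2-fold change; in the other genes a 2-fold change may not be detectable at this depth and number of libraries.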

Other observations

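Listed genes not described above also varied among the 6. Malat1, an abundant nuclear RNA, was 758 FPKM in cortex Δ12 line +/+ female 1, below all 24 others (811 to 3076), and 1552 to 2609 in the other 5. Miat, another nuclear long RNA, was 0.572 FPKM in that library and 5.60 to 19.0 in the other 5. The hypothalamic neuropeptide gene Pmch was 54.7, 60.9 and 72.2 FPKM in the 3 low-Htt libraries labelled striatum and 0 to 4.46 in the 3 labelled cortex. In the 24, Pmch did not follow the tissue labels in this way, at 0.233 to 65.5 FPKM (median 6.18) in the 12 labelled cortex and 0.282 to 82.1 (median 12.4) in the 12 labelled striatum. Ttr, the transthyretin gene of the choroid plexus, was 1.98 to 110 FPKM in the 6 and 1.53 to 425 in the 24. The remaining lists held no gene that passed the test, with median log2 differences of 0.06 over 8 nuclear long RNAs, −0.13 over 5 choroid plexus genes, 0.15 over 3 ependymal genes, −0.11 over 3 blood genes, 0.32 over 4 hypothalamic neuropeptide genes and −0.03 over 2 genes of oligodendrocyte precursors. Without cortex Δ12 line +/+ female 1, these medians were 0.11 for the nuclear long RNAs, −0.20 for choroid plexus, 0.50 for ependymal and 0.95 for hypothalamic neuropeptide genes.

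Differences varied a little with the length of the longest annotated transcript. Over 12950 protein-coding genes, the median log2 difference of the 6 against the 24 was −0.04 in the fifth with the shortest and 0.01 in the fifth with the longest transcripts. For the slope per halving of Htt these medians were 0.06 and −0.13 with all 30 libraries, and 0.08 and −0.10 without cortex Δ12 line +/+ female 1. Genes are not independent replicates, and these medians carry no test.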
